A study of Danio rerio with 6 samples.

Results

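The most abundant transcripts of whole juvenile zebrafish were examined in fish exposed to exemestane (EM) and in solvent control juveniles. For every gene the CPM (the count of the gene multiplied by 1000000 and divided by the total count of its library) was computed, and the 150 genes with the highest median CPM over all 6 libraries were taken out of 32520 genes in the count table. The members were thus chosen on their measured levels, and a high level is not a result. The last members taken were ela2, with a median CPM of 612.5, and MDH2, with 603.2 at rank 150. The first genes left out were CALM2, with a median CPM of 597.8, and mybpc2b, with 593.4.

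Each library was made from the pooled whole bodies of 25 AB strain fish that had shared 1 tank, and each group had 3 such libraries. EM-juveniles were kept in water with 10 µg/L EM together with dimethyl sulfoxide (DMSO), and control juveniles in water with DMSO alone at 10 µL/L, both for 32 days after fertilization. EM is a steroid drug that inactivates aromatase, the enzyme that turns androgens into estrogens. Libraries were strand-specific and made from polyadenylated RNA, and duplicate reads were removed by the authors before counting.

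In a whole fish, a short list of genes takes a large part of the messenger RNA. Trunk muscle makes up much of the body, and its fast fibres are packed with sarcomeres, in which myosin heavy chains pull on actin filaments while troponin and tropomyosin switch the contraction on with calcium. Mitochondrial messages, ribosomal proteins and elongation factors belong to nearly every cell, whereas secreted proteins of the liver, zymogens of the exocrine pancreas, keratins of the skin and collagens of bone and skin each come from a few cell types. A change in such a list can therefore reflect the make-up of the body as well as transcription, and in pooled whole bodies fewer cells of a type and less RNA per cell cannot be told apart.

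By their symbols, 122 of the members fell into groups. The largest was muscle contraction with 33 members, followed by 18 ribosomal proteins, 13 digestive enzymes and gut genes, 11 liver and plasma proteins, 9 mitochondrially encoded genes, 8 translation factors, and 7 members each of collagens with bone and cartilage genes, of creatine kinase and glycolysis, and of actin, tubulin, ubiquitin and chaperones. Keratins and the list of nuclear respiratory chain and ATP synthase genes had 4 members each, and 1 member was alone in its list. No member came from the haemoglobin, lens crystallin, nervous system, ovary or testis lists. The remaining 28 members were in no list, and 1 of them, ENSDARG00000080337, had no symbol in the sources used here.

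Control replicate 2 stood apart from the other libraries. It was the smallest, with 3169530 counts against 4057579 to 7804654 in the others, and had a median of 4 counts per gene against 19 to 35, with 21182 genes detected against 24418 to 24966. Results that rest on this library are therefore given with and without it. At the members themselves depth was ample: the median member had from 3997 to 8913.5 counts per library, for which the counting error was 1.06 to 1.58%, and only control replicate 2 had members under 100 counts, 6 of them, the lowest at 21. These errors cover counting only, as they are computed from the size of the count alone.

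The members took 28.1%, 40.0% and 27.8% of all counts in control replicates 1 to 3, and 25.6%, 26.9% and 24.7% in EM replicates 1 to 3. Every control library lay above every EM library. The mean was 31.95% ± 6.95 (SD, n = 3) in control juveniles and 25.7% ± 1.11 (SD, n = 3) in EM-juveniles, a difference of -6.25 percentage points, of which -2.23 remained when control replicate 2 was left out. The exact two-sided permutation test over libraries gave p = 0.1, which is the smallest that 3 libraries against 3 allow. With the mitochondrially encoded genes taken out of both the members and the totals, the shares were 25.3%, 34.7% and 25.7% in the controls and 23.4%, 24.3% and 22.0% in EM-juveniles, and the groups again did not overlap.

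**Figure D1:**
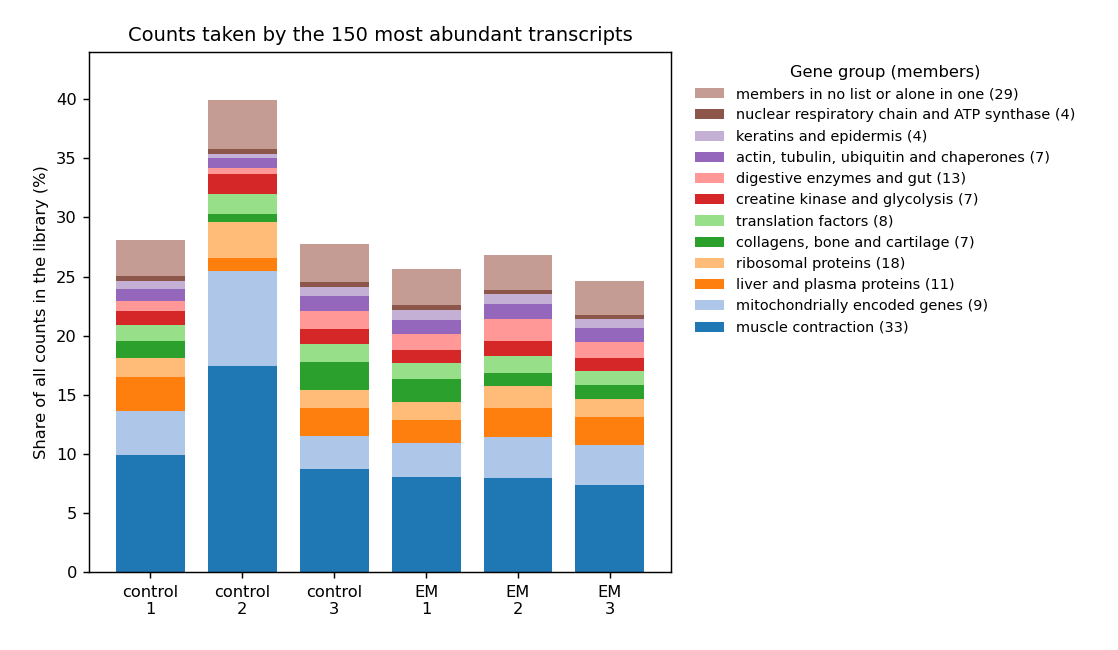
Share of all counts, in percent, taken by the 150 members in each of the 6 libraries, with the bar of each library divided by gene group (members per group in the legend). Control replicate 2 reaches 40.0%, while the other 5 libraries lie between 24.7% and 28.1%, and muscle contraction is the largest block in every bar.

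Muscle contraction genes made up the largest block in every library. Their 33 members took 9.86%, 17.4% and 8.72% of all counts in control replicates 1 to 3 and 8.07%, 7.94% and 7.37% in EM replicates 1 to 3, so that the lowest control still lay above the highest EM library. Among them were actc1b, an actin of the sarcomere, MYL11, a fast muscle myosin light chain, tpma, a tropomyosin, TNNT3, the troponin subunit that binds tropomyosin, and atp2a1l, a calcium pump of the sarcoplasmic reticulum. These, with the myosin heavy chains myha and myhz2, account for 7 of the 10 most abundant members.

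The most abundant member of all was MT-CO1, the catalytic subunit of cytochrome c oxidase, with 11670 CPM in control replicate 1, 26302 in control replicate 2 and 9902.6 in control replicate 3. In EM replicates 1 to 3 it had 9659, 10605 and 9652 CPM. Apart from control replicate 2, all libraries thus lay close together for this gene. The 9 mitochondrially encoded members jointly took 3.80%, 8.10% and 2.80% of the counts in control replicates 1 to 3 and 2.87%, 3.45% and 3.42% in EM replicates 1 to 3, with overlapping groups.

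The other 2 of the 10 most abundant members came from the liver and from translation. The gene apobb.1, an apolipoprotein B that carries lipid from yolk, liver and gut, had 6654, 1375 and 5307 CPM in control replicates 1 to 3 and 5425, 6801 and 6284 CPM in EM replicates 1 to 3. The elongation factor gene eef1a1l1, whose product brings transfer RNAs to the ribosome, was far more even, with 4180, 4997 and 5211 CPM in the controls and 5010.1, 4994 and 4005 CPM in EM-juveniles. Neither gene separated the groups.

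To see which members changed with EM, the libraries were compared with DESeq2 over all genes. Its fold changes, given on the log2 scale with their standard errors, are relative to size factors taken from the ratios of all genes. All 150 members were tested, and 3 passed an adjusted p of 0.05. All 3 were genes of the fast muscle sarcomere and lower in EM-juveniles, among 0.663% of the 23966 tested genes called lower. No member was called higher, where 0.421% of the tested genes were. These p-values measure the spread between tanks of pooled fish within this experiment.

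The myosin heavy chain gene myhc4, which encodes a motor of fast muscle fibres, had 9088, 9217 and 5279.9 CPM in control replicates 1 to 3. In EM replicates 1 to 3 it had 3869, 1265 and 970.3 CPM. Every EM library was below every control, although EM replicate 1 stood much closer to control replicate 3 than to the other EM libraries. The log2 fold change was -2.34 ± 0.65 (SE, DESeq2 adjusted p = 0.0313).

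Another fast myosin heavy chain gene, myha, had 10616, 17970.5 and 8684 CPM in control replicates 1 to 3. It had 5415, 4145 and 3499 CPM in EM replicates 1 to 3. Again all EM libraries were below all controls, and the gap between the groups was wider than the range within EM-juveniles. The log2 fold change was -1.97 ± 0.55 (SE, DESeq2 adjusted p = 0.0333).

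The third was a gene for troponin I of fast muscle, the subunit that holds actin and myosin apart at rest. Among the members 3 Ensembl genes carry the symbol TNNI2, and the one called was ENSDARG00000013752. It had 1470, 3047 and 989.6 CPM in control replicates 1 to 3 and 631.9, 478.5 and 467.3 CPM in EM replicates 1 to 3, with no overlap. The log2 fold change was -2.31 ± 0.63 (SE, DESeq2 adjusted p = 0.0274).

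Whether these 3 genes passed the threshold depended on the test and on single libraries, while their fold changes stayed below 0 throughout. By the quasi-likelihood test of edgeR no member was called, 6 members were under an unadjusted p of 0.05 and the smallest adjusted p of a member was 0.916, while that test called 0 of 19264 genes in all and had 759 under an unadjusted p of 0.05. Limma voom with sample weights also called 0 members, with 23 under an unadjusted p of 0.05. In DESeq2 the number of called members was 1 without control replicate 1, 2 without EM replicate 1, and 0 without EM replicate 2 or EM replicate 3. It was 4 without control replicate 2, with 2 lower and 2 higher in EM-juveniles. Without control replicate 3 it was 11, with 3 lower and 8 higher. The share of all genes called is not given for these fits. Where the calls were lost, the log2 fold changes of TNNI2 ENSDARG00000013752, myhc4 and myha were -2.30, -2.35 and -1.96 by edgeR, -2.25, -2.09 and -1.94 without EM replicate 2, and -2.21, -1.99 and -1.82 without EM replicate 3. By voom they were -1.51, -2.45 and -1.38. Without control replicate 2, TNNI2 ENSDARG00000013752 (log2 fold change -1.29, DESeq2 adjusted p = 0.000535) and myha (-1.21, adjusted p = 0.000534) remained called lower, and myhc4 did not (-1.90, adjusted p = 0.684). By edgeR on the same libraries none was called, with edgeR adjusted p of 0.126 for TNNI2 ENSDARG00000013752, 0.0853 for myha and 0.592 for myhc4.

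Other genes of the same machinery were read from the whole muscle contraction list, of which 153 genes were tested. The 3 members were also its only calls by DESeq2, and none of the list was called higher. Under an unadjusted p of 0.05 in DESeq2 there were 22 of the 153 genes on the lower side and 8 on the higher side. Over all tested genes the share was 6.98% in either direction. The median log2 fold change was -0.15 over the tested genes of the list and -0.93 over its 33 members, and it was -0.22 over those members without control replicate 2.

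The myosin heavy chain genes that are members were then looked at together, a choice made after their values were seen. In the order of a newer assembly (GRCz12tu), from which only neighbourhood was taken, myhz2, myhc4, myha, myhz1.3, myhz1.2 and myhz1.1 are 6 consecutive genes, all of them members. They are close relatives in sequence, and how reads that fit several of them were divided is not given in the sources used here, so the level of each single gene is uncertain. Of all reads on these genes, myhc4 and myha together held 67.8%, 52.0% and 57.1% in control replicates 1 to 3 and 40.1%, 28.1% and 23.9% in EM replicates 1 to 3. The share of myhz1.1, myhz1.2 and myhz1.3 was 14.5%, 30.8% and 21.9% in the controls and 34.2%, 45.4% and 48.0% in EM-juveniles. For both sets the groups did not overlap. These are shares of the same reads, so a lower share of the called genes myhc4 and myha raises the rest. The opposite directions are therefore not separate results. The share of myhz2 was 17.6%, 17.2% and 21.0% in the controls and 25.7%, 26.4% and 28.1% in EM-juveniles, also without overlap.

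The 3 genes in the myhz1 row did not pass the test with all libraries. In CPM, myhz1.3 had 1061, 3886 and 1376 in control replicates 1 to 3 and 2541, 2976 and 3107 in EM replicates 1 to 3. Control replicate 2 was thus above all EM libraries while the other controls were below all of them, and the log2 fold change was -0.09 ± 0.69 (SE, DESeq2 adjusted p = 1.00). Without control replicate 2 the log2 fold change of myhz1.3 was 1.19 and that of myhz1.1 was 0.77, with DESeq2 adjusted p of 2.3e-05 and 0.0164, and both were then called higher. By edgeR on the same libraries 0 members were called. The neighbour myhz2, with 5127, 9010.5 and 5135 CPM in control replicates 1 to 3 and 5939, 5084 and 5243 CPM in EM replicates 1 to 3, was within the range of the controls in all EM libraries except for EM replicate 2, which lay just under it.

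A like split appeared among the 3 members named TNNI2. The reads of ENSDARG00000013752 were 45.5%, 47.0% and 42.6% of those on the 3 genes in control replicates 1 to 3 and 30.4%, 18.4% and 19.7% in EM replicates 1 to 3. The summed level of the 3 genes was 3233, 6485 and 2322 CPM in the controls and 2077, 2599 and 2375 CPM in EM-juveniles, so that the groups overlapped in the sum and not in the share of the called gene. The share was computed for the gene already called lower, so it is a description and no separate support. Assignment of reads among these paralogs is as uncertain as for the myosins.

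**Figure D2:**
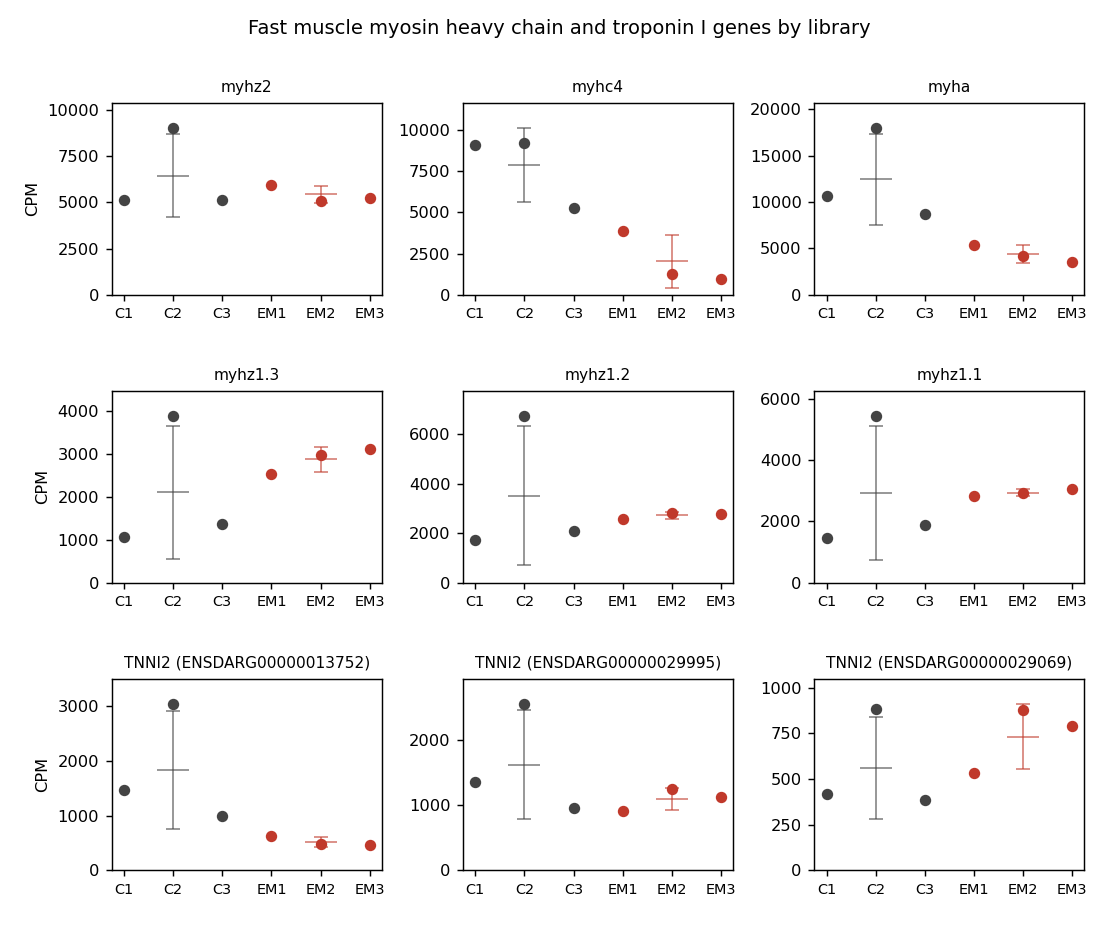
CPM of the 6 neighbouring myosin heavy chain genes and the 3 members named TNNI2 in each library (dots; C, control; EM, exemestane), with the mean and SD of each group (n = 3) drawn at the middle library. For myhc4, myha and TNNI2 ENSDARG00000013752 all EM libraries lie below all controls, whereas for the myhz1 genes control replicate 2 lies above and the other controls below the EM libraries.

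With the 3 calls included, 19 members were under an unadjusted p of 0.05 in DESeq2, all with lower estimates in EM-juveniles. This is 12.7% of the members, against 6.98% of the tested genes in either direction. The number depended on the scaling, with 7 members when library totals served as size factors, a choice made after the data were seen, and 6 with size factors from the members alone. It was 39 without control replicate 1, 21 without control replicate 2 and 69 without control replicate 3. Without EM replicates 1 to 3 in turn it was 11, 7 and 6. The numbers of these other fits count members in either direction, and the share over all tested genes is not given for them. Without control replicate 3, for example, 8 of the 11 called members were higher in EM-juveniles. Of the 19, 11 were muscle contraction genes, the called genes among them. After the called genes, the smallest p-values belonged to both genes for titin, the giant spring of the sarcomere, to malat1, a nuclear long non-coding RNA, to ENO3, the muscle enolase of glycolysis, to UCP1, a mitochondrial uncoupling protein, to nme2b.2, a nucleoside diphosphate kinase, and to atp2a1l.

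For TTN ENSDARG00000000563 the CPM was 4250.5, 4126 and 3583 in control replicates 1 to 3 and 2836.5, 2331 and 2438 in EM replicates 1 to 3. The other titin gene, TTN ENSDARG00000028213, had 4203, 3095 and 3549 CPM in the controls and 3033, 2383 and 2493 CPM in EM-juveniles. In both genes every EM library was below every control, including control replicates 1 and 3. Their log2 fold changes were -1.01 ± 0.36 and -0.76 ± 0.29 (SE), with DESeq2 adjusted p of 0.260 and 0.349.

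In contrast to titin, the estimates for malat1 and ENO3 came mainly from control replicate 2. In control replicates 1 to 3, malat1 had 1304, 6468 and 1520 CPM, against 1179, 1293 and 937.5 CPM in EM replicates 1 to 3. Its log2 fold change was -2.04 ± 0.78 (SE, DESeq2 adjusted p = 0.349) and -0.37 without control replicate 2. ENO3 had 978.2, 2875 and 822.1 CPM in the controls and 707.5, 720.02 and 575.0 CPM in EM-juveniles, with a log2 fold change of -1.77 ± 0.69 (SE, DESeq2 adjusted p = 0.370) and -0.49 without control replicate 2.

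The remaining members with small p-values on the lower side were also not called. For UCP1 the CPM was 612.4, 839.2 and 1182.5 in control replicates 1 to 3 and 643.8, 590.3 and 404.9 in EM replicates 1 to 3, and the groups overlapped. For nme2b.2 it was 3089, 7092 and 2892 in the controls and 2536, 2442.5 and 1988 in EM-juveniles, without overlap. The DESeq2 adjusted p was 0.495 for UCP1, 0.515 for nme2b.2 and 0.595 for atp2a1l.

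In CPM, 13 members had every EM library below every control, a pattern found in 3.12% of the tested genes. They were myha, myhc4, TNNI2 ENSDARG00000013752, MYL11, both TTN genes, pvalb2, actn3b, ENO3, GAPDH, nme2b.2, YBX1 and malat1. Of these, 8 are in the muscle contraction list and 2 in that of creatine kinase and glycolysis. The opposite pattern, every EM library above every control, was found in 5 members and in 9.52% of the tested genes. Both patterns depend on control replicate 2, and they were not counted without it. That library had the highest CPM in 75 members and in 16.2% of the tested genes. It had the lowest in 57 members and in 59.6% of the tested genes. The 5 members above were HSPA8, a chaperone, krt4, a keratin of the surface epithelium, and atp2a1, a calcium pump of muscle. With them were CPA1, a pancreatic carboxypeptidase, and CD81, a tetraspanin of the cell membrane.

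On the higher side no member was under an unadjusted p of 0.05. The smallest p-values were those of CPA1, krt4, CPB1, prss1, ctrb.1, muc5.1, ela2, CEL, MMP2 and hmga1a. Among them are 6 pancreatic enzymes, the mucin muc5.1, the matrix protease MMP2 and the chromatin protein hmga1a. For krt4 the CPM was 1409, 1013 and 1661 in control replicates 1 to 3 and 2070, 2213 and 2138 in EM replicates 1 to 3, with a log2 fold change of 0.38 ± 0.23 (SE, DESeq2 adjusted p = 0.846). Its EM libraries were close together, with a coefficient of variation (CV) of 3.35%, and all lay above the controls.

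For CPA1, which trims amino acids from the end of dietary peptides, the CPM was 367.3, 50.5 and 984.4 in control replicates 1 to 3. In EM replicates 1 to 3 it was 1187, 1667 and 1109.5. The range within the controls was much wider than the gap between the groups, and the log2 fold change was 1.41 ± 0.76 (SE, DESeq2 adjusted p = 0.756). The DESeq2 adjusted p was between 0.846 and 0.988 for the other 9 members with the smallest p-values on this side.

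The scale of the members as a list depended on control replicate 2. Of the 150 log2 fold changes 114 were below 0 and 36 above, with a median of -0.54. The median was 0.0009 over all tested genes, a value that moves with the size factors. In the same fit it was -0.13 over the 13119 genes with 10 or more counts in each library. Without control replicate 2 the split was 96 to 54 and the median -0.07. When the library totals served as size factors, a choice made after the data were seen, 91 were below 0 and 59 above and the median was -0.15. With size factors from the members alone, 81 were below 0 and 69 above and the median was -0.03. These scalings also moved the median of the 13119 genes that had 10 or more counts in each library, from -0.13 to 0.15 with library totals and to 0.23 with factors from the members. The size factor of control replicate 2 was 0.404, whereas its total alone would give 0.616.

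**Figure D3:**
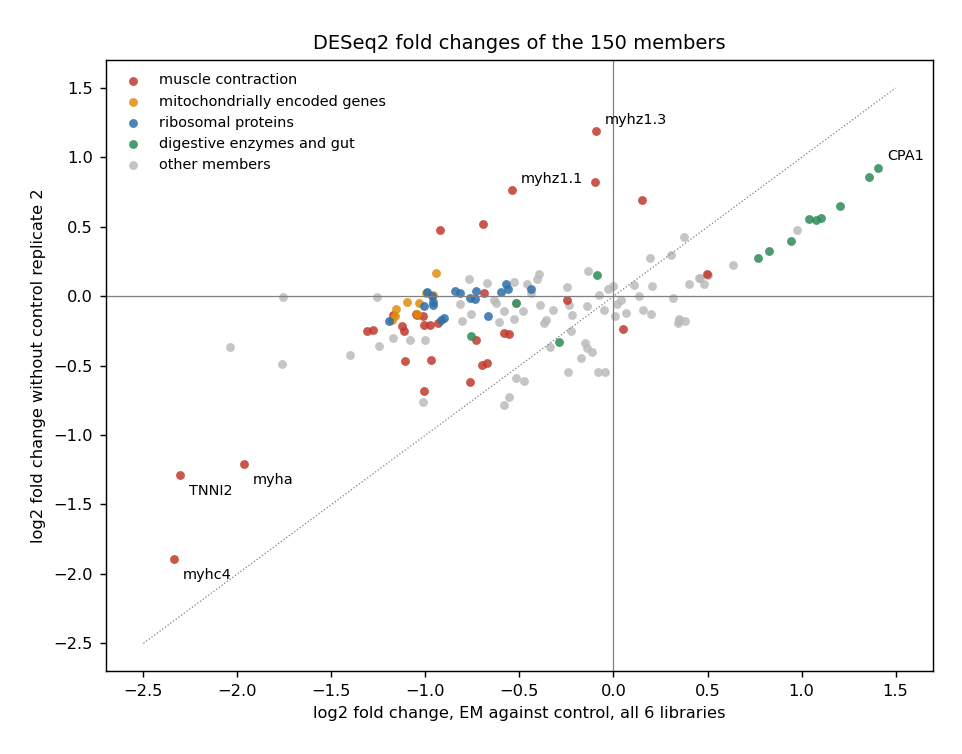
DESeq2 log2 fold change of each member, EM against control, with all 6 libraries (x axis) and without control replicate 2 (y axis), coloured by gene group; the dotted line marks equal values. Mitochondrial and ribosomal members lie between -1.19 and -0.44 on the x axis and close to 0 on the y axis, while myhc4, myha and TNNI2 ENSDARG00000013752 are below -1 on both axes.

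Mitochondrial and ribosomal members showed this most evenly. All 9 mitochondrial members had log2 fold changes from -1.18 to -0.95 with all libraries, with a median of -1.04, and a median of -0.05 without control replicate 2. All 18 ribosomal members were below 0, from -1.19 to -0.44, with a median of -0.83, and the median without control replicate 2 was -0.01. Across the whole lists, DESeq2 called 0 of 13 tested mitochondrial genes, of which 1 was under an unadjusted p of 0.05, on the higher side, and 0 of 97 tested ribosomal genes, of which 4 were, all on the lower side.

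RPL4 and rpl7a, the most abundant ribosomal members, both belong to the large subunit. RPL4 had 1284, 2504 and 1074 CPM in control replicates 1 to 3 and 985.1, 1506 and 1279.6 CPM in EM replicates 1 to 3. Control replicate 2 was the highest library, and the other 5 were intermixed. The same order held for rpl7a, with 2109 CPM in control replicate 2 and 957.1 to 1367.5 CPM in the others. Ribosomal members jointly took 1.60%, 3.08% and 1.56% of the counts in the controls and 1.46%, 1.81% and 1.53% in EM-juveniles.

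MT-CYB, the second most abundant mitochondrial member and a subunit of complex III, had 4866, 10646 and 3400 CPM in control replicates 1 to 3. It had 3681, 4414 and 4460 CPM in EM replicates 1 to 3. Of the other mitochondrial members, the 3 genes of complex IV summed to 17429, 39986 and 14976 CPM in the controls and 14635, 16197.5 and 14647 CPM in EM-juveniles. The 4 genes of complex I summed to 13105, 25282 and 7793 CPM in the controls and 8367, 11570 and 12560 CPM in EM-juveniles, so that they varied more than complex IV also outside control replicate 2.

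Translation factors differed less between libraries. With 8 members they took 1.30%, 1.62% and 1.47% in control replicates 1 to 3 and 1.35%, 1.49% and 1.22% in EM replicates 1 to 3. The elongation factor eef2b, which moves the ribosome along the message, ranged from 2406 to 3345 CPM over all 6 libraries, with control replicate 2 at 2485. No translation factor among the members was called, and of 92 tested genes of the list 3 were called lower and 0 higher.

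Of the 7 members of creatine kinase and glycolysis 5 had their highest CPM in control replicate 2. The creatine kinases ckmb and ckma regenerate ATP from phosphocreatine. In control replicates 1 to 3, ckmb had 3764, 4175 and 3718 CPM and ckma had 2695, 4585 and 3089 CPM. In EM replicates 1 to 3 they had 3394, 3876 and 3108 CPM and 2579, 3122 and 2238 CPM. The groups overlapped for both, and the 7 members had log2 fold changes from -1.77 to -0.14, none of them called. Their median was -0.53 with all libraries and -0.18 without control replicate 2, and GAPDH, an enzyme of glycolysis, went from -1.18 to -0.30.

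Liver and plasma proteins were mostly low in control replicate 2. Of their 11 members 9 had their lowest CPM there and 2 their highest. They took 2.88%, 1.05% and 2.36% in control replicates 1 to 3 and 1.94%, 2.50% and 2.33% in EM replicates 1 to 3. The transferrin gene tfa, whose product carries iron in plasma, had 5953, 1479 and 5903 CPM in the controls and 3824, 4429 and 4386 CPM in EM-juveniles. Without control replicate 2 its log2 fold change was -0.54 (DESeq2 adjusted p = 0.195). Of 59 tested genes of the liver list DESeq2 called 0, and 5 were under an unadjusted p of 0.05, 2 higher and 3 lower.

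Collagens and their partners were low in control replicate 2 as well. The 7 members took 1.42%, 0.694% and 2.36% of the counts in control replicates 1 to 3 and 1.96%, 1.11% and 1.16% in EM replicates 1 to 3. Type I collagen is the main fibre of bone, skin and tendon, and its most abundant gene, col1a1a, had 4628, 3084 and 7418 CPM in the controls and 5774, 3357 and 3368 CPM in EM-juveniles. Control replicate 3 and EM replicate 1 were the highest libraries, whichever their group. COL1A1, another alpha 1 chain gene, had the same order among these 5 libraries, with 3098 and 5728 CPM in control replicates 1 and 3 and 4308, 1984 and 2041 CPM in EM replicates 1 to 3. Of 105 tested genes of the list DESeq2 called 0, and 3 were under an unadjusted p of 0.05 on the higher side and 2 on the lower.

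Keratins, the intermediate filaments of the epidermis, took 0.635%, 0.328% and 0.816% of the counts in control replicates 1 to 3 with 4 members. They took 0.832%, 0.841% and 0.746% in EM replicates 1 to 3. The most abundant were krt5, with 590.9 CPM in control replicate 2 and 2124 to 3150 CPM in the others, and krt91, with 1484 CPM there and 2034 to 2532 CPM in the others. Of 96 tested genes in the list of keratins and epidermis 6 were called higher and 2 lower, and none of them was a member.

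Among the members that most cells express are the 7 of actin, tubulin, ubiquitin and chaperones. They took 1.05%, 0.899% and 1.25% of the counts in control replicates 1 to 3 and 1.23%, 1.27% and 1.19% in EM replicates 1 to 3. Of the 7, 4 had their lowest CPM in control replicate 2 and 2 their highest. The most abundant, HSP90AB1, a chaperone, had 1199.6 CPM in control replicate 2 and 2369 to 3179 CPM in the others. The next, actb2, a cytoplasmic actin, had 1333 CPM there and 1992 to 3314 CPM in the others. In the list of nuclear respiratory chain and ATP synthase genes, the members were exchangers of ADP and ATP (SLC25A5, SLC25A4) and ATP synthase subunits (ATP5F1A, ATP5F1B). None was a nuclear subunit of complex I, III or IV. SLC25A5 lay between 1527 and 2045 CPM in all 6 libraries. ATP5F1B, the catalytic subunit of ATP synthase, lay between 524.7 and 1003 CPM, with its lowest value in control replicate 2. The 4 nuclear members together took 0.384 to 0.424% of the counts in every library, the most even of the groups. Their sum showed none of the excess of the mitochondrially encoded genes in control replicate 2. Singly they diverged, since 2 had their highest CPM in that library and 2 their lowest.

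Digestive enzymes varied widely between libraries. Their 13 members took 0.818%, 0.462% and 1.47% of the counts in control replicates 1 to 3 and 1.29%, 1.81% and 1.38% in EM replicates 1 to 3. CELA1, an elastase and the most abundant of them, had 499.1, 86.1 and 2105 CPM in the controls and 1513, 1932 and 1418 CPM in EM-juveniles. The next, chia.2, a chitinase, had 1574.5, 1286 and 1222 CPM in the controls and 1115.5, 2181 and 1532 CPM in EM-juveniles, with no such deficit in control replicates 1 and 2.

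The pancreatic enzymes, 8 from this list together with the lipase CEL and grouped after their values were seen, moved as a block between the control libraries. They summed to 2705, 361.6 and 11102 CPM in control replicates 1 to 3 and to 9336, 12689 and 8899 CPM in EM replicates 1 to 3. Control replicate 3 thus lay within the range of EM-juveniles, control replicate 1 at 0.244 times the level of control replicate 3 (0.168 to 0.373 for the single genes), and control replicate 2 at 0.0387 times the median of the other libraries. Without control replicate 3, 8 of the 9 were called higher in EM-juveniles by DESeq2. For CPA1 the log2 fold change was then 2.48 (DESeq2 adjusted p = 0.0182). The share of all genes called in that fit is not given here. With all libraries none of the 9 was called, and their smallest DESeq2 adjusted p was 0.756. Of 71 tested genes of the digestive list 0 were called higher and 2 lower with all libraries.

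How far control replicate 2 departed from the rest was also measured gene by gene. Of the members, 75 had their highest CPM in this library and 57 their lowest, which leaves 18 in between. Over the tested genes the figures were 16.2% highest and 59.6% lowest. In 38 members control replicate 2 was at least 2-fold above the median of the other libraries, and in 39 at least 2-fold below it. The direction differed between gene groups. The median ratio was 2.38 for mitochondrially encoded genes, 1.93 for muscle contraction and 1.88 for ribosomal proteins. It was 0.388 for liver and plasma proteins, 0.361 for keratins, 0.208 for collagens and 0.0455 for digestive enzymes. Some groups were mixed, with ratios of 0.197 to 4.82 in muscle contraction and 0.00656 to 1.47 in digestive enzymes. Of the 8 translation factors 5 had a ratio above 1, as had 2 of the 7 members of actin, tubulin, ubiquitin and chaperones. All 9 mitochondrial and all 18 ribosomal members had their highest CPM there, and all 7 collagen and all 4 keratin members their lowest. Relative to the other controls, control replicate 2 was also lower among less abundant genes. Its median log2 ratio to the mean of control replicates 1 and 3 was 0.93 over rank 1 to 10 and 0.60 over rank 11 to 50. It was -0.05 over rank 51 to 150, -0.48 over rank 151 to 1000 and -0.64 over rank 1001 to 5000.

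**Figure D4:**
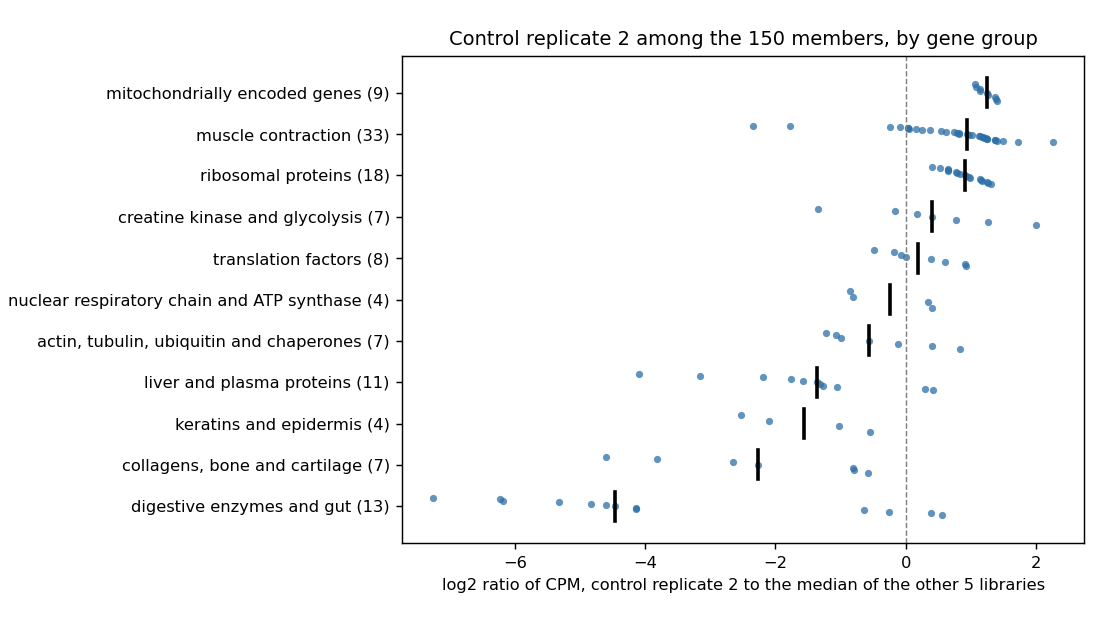
Log2 ratio of the CPM in control replicate 2 to the median CPM of the other 5 libraries, for each member in the groups with at least 3 members (dots) and the median of each group (bars). All mitochondrial and ribosomal members lie above 0, all collagen and keratin members lie below 0, and the digestive members extend furthest to the left.

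At the upper end of these ratios were malat1 at 5.00, TNNI2 ENSDARG00000013752 at 4.82, ENSDARG00000080337 at 4.46 and ENO3 at 3.99. At the lower end were muc5.1 at 0.00656, ela2 at 0.0133, prss59.1 at 0.0138, MELTF at 0.0143 and ctrb.1 at 0.0249. The values of muc5.1 were 394.2, 6.63 and 1010 CPM in the controls and 1195, 910.1 and 1299 CPM in EM-juveniles. Those of MELTF, an iron-binding protein of the cell surface, were 440.5, 10.4 and 1115 CPM in the controls and 773.0, 728.6 and 629.9 CPM in EM-juveniles. What sets control replicate 2 apart was not tested.

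Agreement between replicates was close in EM-juveniles and loose in the controls. The median CV of the members was 12.5% over the 3 EM libraries and 46.0% over the 3 controls. Over 2 libraries only, it was 14.3% for control replicates 1 and 3 and 10.1% for EM replicates 2 and 3. For genes of rank 151 to 1000 the median CV was 14.2% over the 3 EM libraries and 39.1% over the 3 controls. Among EM-juveniles the steadiest member was CKB, a creatine kinase, with 613.6, 636.0 and 625.5 CPM (CV 1.79%), and the most variable was myhc4 (CV 78.4%), followed by COL1A1 (CV 47.7%). Of the 150 members 118 stayed within 2-fold over the 5 libraries other than control replicate 2.

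Across the members, Pearson's r of log2(CPM + 1) averaged 0.807 for pairs of libraries from the same group and 0.750 for pairs from different groups, a gap of 0.057. Over all 27184 genes with at least 1 count the averages were 0.926 and 0.912. These correlations are across genes that share their libraries and are given as a description. The highest r over the members was 0.962, between control replicate 3 and EM replicate 1, which are from different groups and are the 2 libraries with the most counts. The next was 0.957, between EM replicates 2 and 3, and the lowest was 0.479, between control replicates 2 and 3. Pairs with control replicate 2 averaged 0.576, and the pairs without it ranged from 0.785 to 0.962. Control replicates 1 and 3 had an r of 0.808, below the EM pairs, which ranged from 0.914 to 0.957. The gap between the averages for same-group and other pairs was -0.012 without EM replicate 2 and -0.014 without EM replicate 3.

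The same picture came from the lists themselves. The 150 most abundant genes of each single library shared 130, 103 and 132 genes with the members in control replicates 1 to 3 and 135, 137 and 134 in EM replicates 1 to 3. In all 6 libraries 89 members were among the 150 most abundant, and in all but control replicate 2 there were 106.

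Removing duplicate reads can hold down the count of a highly expressed gene, since independent fragments that start at the same position are then counted once, and the more so the deeper the library. Counts before duplicate removal were not analysed here, so the deposited levels of the members may be too low by an unknown amount, and differences between them too small. The values below compare libraries by their totals after duplicate removal, which need not follow the depth of sequencing. They describe the deposited counts and cannot show whether counts were held down. EM replicate 1 had 1.90 times as many counts as the mean of EM replicates 2 and 3, and the raw count of MT-CO1 was 1.81 times as high, which left its CPM within the range of 9652 to 10605 seen in EM-juveniles. The median log2 ratio of CPM in EM replicate 1 to the mean of EM replicates 2 and 3 was -0.0001 over the members of rank 1 to 10, -0.07 over rank 11 to 50, -0.09 over rank 51 to 150, -0.02 over rank 151 to 1000 and 0.06 over rank 1001 to 5000. Within the members the ratio to this mean was nearest to 0 for the most abundant ones. Taken singly, rank 1 to 10 had -0.10 against EM replicate 2 and 0.11 against EM replicate 3, of opposite sign. Over all 150 members the ratio to the mean was lower than over rank 1001 to 5000, at -0.07 against 0.06. Against EM replicate 2 alone these values were -0.16 and 0.12, and against EM replicate 3 alone 0.01 and 0.02.

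The raw counts of MT-CO1 were 70257, 83365 and 72530 in control replicates 1 to 3 and 75388, 44306 and 39164 in EM replicates 1 to 3. It was the highest count of each library, and the highest of all was in the smallest library. In all, 23 members had their highest raw count in control replicate 2. The part of duplicate removal in the differences between libraries was not tested beyond these values.

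**Figure D5:**
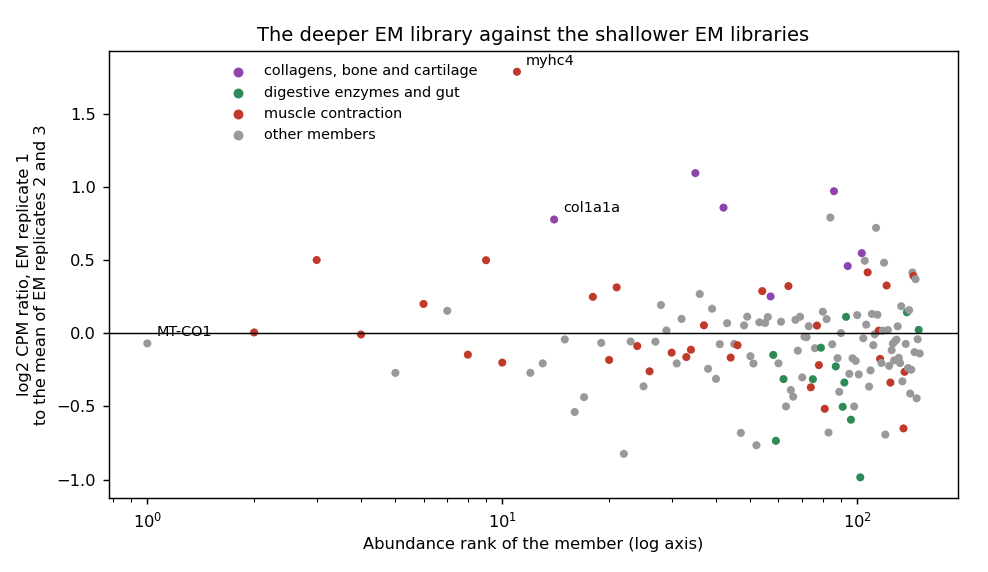
Log2 ratio of CPM in EM replicate 1, the EM library with the most counts, to the mean of EM replicates 2 and 3, for each member against its abundance rank on a log axis, coloured by gene group. Most members lie near 0 at every rank; myhc4 and the collagens stand above 0, and several digestive members below it.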

How the data were processed

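RNA-seq of pooled whole juveniles was analysed in 6 libraries, 3 EM and 3 control, grouped by their sample titles. Per the labels and the study's methods, the authors checked reads with FastQC 0.11.8, aligned them to GRCz11 with HISAT2 2.0.5, removed duplicates with SAMtools 1.5 (rmdup) and counted exonic reads per Ensembl gene on the reverse strand with HTSeq 0.9.1. The deposited values are raw counts, without normalisation, for 32520 genes. How reads matching several genes were treated is not given in the sources used here.

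CPM was computed from these counts and the library totals. Comparisons across genes used DESeq2 1.42.0 (Wald test, two-sided) in R 4.3.3. The study also used DESeq2, in another version. Size factors were median-of-ratios, with Benjamini-Hochberg adjustment over all genes with an adjusted p. The adjusted p had to be under 0.05, without a covariate or a limit on the fold. Beside it, edgeR 4.0.16 (quasi-likelihood test, TMM factors) and limma 3.58.1 (voom with sample weights) were run. Other alternatives changed the size factors, the filter on low counts (together with a local dispersion fit), the depth (thinning to the smallest total), the member rule, the pseudocount and the libraries used. The DESeq2, edgeR and voom fits had been run on simulated counts with known changes. Those counts held no library that stood apart in composition and no duplicate removal, so they do not cover these features. Replicate pairs differed by more than counting noise, so no library was a copy of a replicate, and all were used. That check gives no ground for keeping a library that stands apart. The pairs with control replicate 2 differed most, with a chi-square per degree of freedom of 62.1 and 79.0. The other pairs had 7.76 to 24.1.

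Symbols came from a RefSeq-based table for GRCz12tu, matched by Ensembl identifier for all members but 1 and for 29201 genes in all. Gene groups are 17 lists of symbols. Members, lists and subsets were chosen with earlier results of these data known. Genes named are the 10 most abundant members, up to 10 in each direction with the smallest DESeq2 p and every call, the 5 with the highest and 5 with the lowest ratio of control replicate 2 to the other libraries, the 2 most abundant of each list with at least 3 members, and the 4 genes around the last rank. Others, such as the myosin neighbours, the further TNNI2 genes, complex subunits, CKB and genes without overlap between groups, were named after their values were seen. One gene that this rule names is not reported here.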

Additional observations from a re-analysis of the deposited data

How the results depend on the processing

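The number of called members was 3 under DESeq2 with TMM factors, with size factors from the non-members and after thinning. It was 2 with size factors from the members alone and with library totals, and 0 by edgeR, by voom, and by edgeR without control replicate 2. With at least 10 counts in every library it was 1, but that fit also used a local instead of a parametric dispersion trend. Leaving out each library in turn gave 0 to 11 calls in either direction and a median log2 fold change of -0.694 to -0.073. The difference in the share of counts was then -8.33 to -2.23 percentage points. The difference in mean r was -0.014 to 0.210, and it was below 0 without EM replicate 2 or EM replicate 3. The median log2 fold change was -0.12 by voom, -0.034 with size factors from the members alone, -0.15 with library totals and -0.084 by edgeR without control replicate 2. Library totals and edgeR without control replicate 2 were chosen after the data were seen. Taking the 100 or 300 most abundant genes, or the 150 most abundant in the controls alone, of which 133 were members, gave 2, 3 and 3 calls. With the replicate number as a block the calls were again TNNI2 ENSDARG00000013752, myhc4 and myha, 3 in all, and the median was -0.43, but the numbers do not pair the libraries: deviations of same-numbered libraries correlated at -0.15, 0.21 and -0.20. The 20 members named for their p-values were followed through the alternatives. Of these values, 291 kept direction and side of the threshold, 23 lost the call, 6 gained it and 0 reversed. Only the 3 called genes could lose a call, so all 23 losses were theirs. Most of the 291 came from members that were called in neither fit. The 6 gains were pancreatic enzymes without control replicate 3. With 3 libraries per group and 1 control apart from the rest, a small change in a member cannot be resolved.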
